A study of Danio rerio with 12 samples.

Results

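Whole zebrafish (Danio rerio) larvae that had lived in 30 nM tributyltin chloride (TBT) were compared with larvae that had lived in the solvent alone, across all genes. The members were chosen by the titles of the libraries: the 3 titled TBT 30 nM and the 3 titled TBT Ctrl, 6 of the 12 libraries of the study. All larvae were wild type and were collected as eleutheroembryos, hatched but still living on yolk, at 5 days post fertilization (dpf). The exposure ran from 2 to 5 dpf through the water, renewed daily, with TBT at 30 nM or 0 nM and with dimethyl sulfoxide at 0.2% (v/v) in both groups. The other groups held 3 libraries each at 3 and 100 nM. Each library was made from a pool of 10 larvae, and the labels are silent on whether the 3 pools of 1 group shared a clutch or a tank. The p-values therefore measure the spread between these pools. Whole animals were ground, so fewer cells of a type and less RNA per cell cannot be told apart in any value below.

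TBT is an organotin biocide, once used in antifouling paint, that binds the retinoid X receptors (RXR) and the fat-cell receptor PPARγ. RXR is the shared partner of many nuclear receptors, among them the oxysterol receptor LXR, the bile acid receptor FXR, the vitamin D receptor, the retinoic acid receptors and the PPARs. Each pair sits on its own set of genes, and several of these pairs can be switched on by a ligand of RXR alone. In vertebrates LXR drives cholesterol efflux and fatty acid synthesis, FXR controls bile acid synthesis and transport, and the vitamin D receptor controls the enzymes that break vitamin D down. TBT is best known for making vertebrates store fat.

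The values are normalised counts, whole numbers deposited after division by a factor for each library. They summed to between 28277738 and 31308532 in the 30 nM libraries, against 26515823 to 30407574 in the control libraries, and the estimated raw totals lay between 23800000 and 31200000. Over the genes tested, log2 values correlated at 0.980 to 0.983 among the 30 nM libraries and at 0.948 to 0.977 among the control libraries. On the first principal component of all 12 libraries, with 29.3% of the variance, the 30 nM libraries had the scores 18.6, −25.3 and −3.16, against 28.8, −71.7 and −23.9 for the control libraries. Control replicate 2 had the lowest score of all. Replicate 2 also scored lowest within every group, with −17.4 at 3 nM and −30.3 at 100 nM, and replicate 1 scored highest. The second component held 28.8% of the variance. On it the 30 nM libraries scored −14.8, 3.2 and −1.9 and the control libraries −38.9, −2.2 and −24.8, with overlap. The 100 nM libraries scored highest on it, with 39.9, 72.0 and 46.1.

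The comparison asked which transcripts differed after 3 days at the middle concentration, tested with limma on log2(normalised count + 1), with all 12 libraries in 1 fit and a Benjamini-Hochberg adjusted p under 0.05 as the threshold. Of 26816 genes listed, 22404 passed a filter of at least 10 in at least 3 libraries and were tested. Expression differed for 119 of them, 0.531% of those tested, with 85 higher (0.379%) and 34 lower (0.152%) at 30 nM. More than 2-fold changes made up 73 of the 119, 49 higher and 24 lower. The median log2 fold change was −0.00 over all genes tested, and the median size among the 119 was 1.28. In all 119 the 3 pools at 30 nM lay outside the range of the 3 control pools, as they did in 3196 of all tested genes (14.3%), above it in 1564 (6.98%) and below it in 1632 (7.28%). An unadjusted p under 0.05 was reached by 2169 genes.

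The length of this list depended on single libraries and on the fit. It held 24 genes, 18 higher and 6 lower, that passed in each of the 12 fits that left out 1 library. The number of calls was 38 without control replicate 3, 75 without control replicate 1 and 267 without control replicate 2. Without 30 nM replicates 1, 2 and 3 it was 52, 34 and 28, and without 100 nM replicate 2 it was 179. A fit of the 6 libraries alone called 15 genes (0.067%), all higher. Scaling all libraries to the same total gave 62 calls (0.278%), 31 higher and 31 lower (0.139% each), so that 50% of the calls were higher instead of 71.4%, while the median over all genes moved to −0.07. All 24 genes that passed in every leave-one-out fit are named below.

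**Figure D1:**
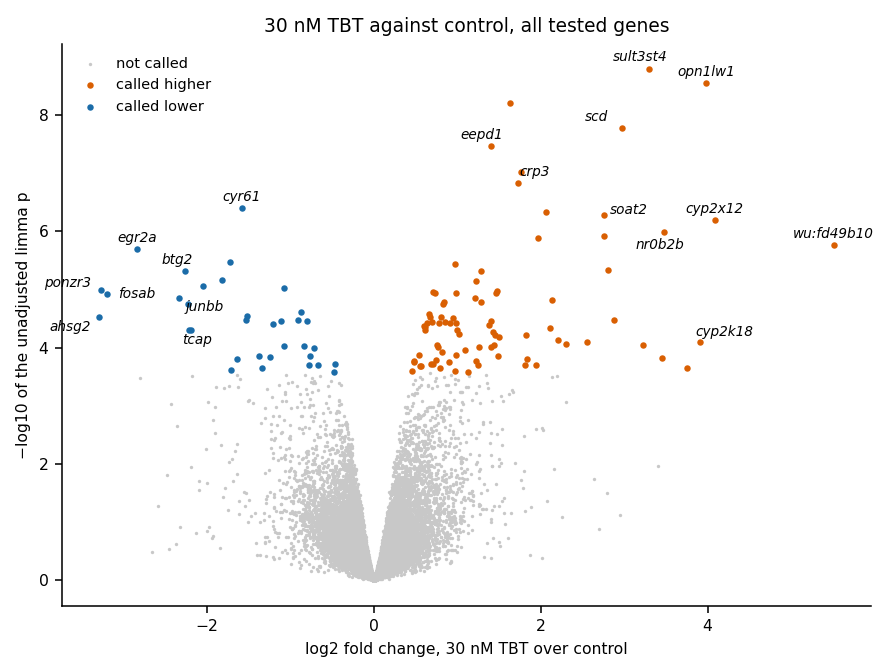
Each point is 1 of 22404 tested genes, with the log2 fold change of 30 nM TBT over the control on the x axis and the −log10 of the unadjusted limma p on the y axis; orange points were higher (85) and blue points lower (34) past an adjusted p of 0.05. The labelled rises reach a log2 fold change of 5.51 (wu:fd49b10) and the labelled falls −3.30 (ahsg2).

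The 10 largest rises that met the naming rule had log2 fold changes between 2.55 and 5.51. wu:fd49b10 (ENSDARG00000092091), whose product has no role given here, had 763, 1749 and 1215 normalised counts in the 30 nM pools, against 30, 49 and 10 in the control pools. Its lowest value at 30 nM was far above its highest in the control, and its log2 fold change was 5.51 ± 0.61 (SE, limma adjusted p = 0.00257). cyp2x12 (ENSDARG00000068290), a family 2 cytochrome P450 gene, had 454, 916 and 767 counts at 30 nM and 36, 70 and 24 in the control (log2 fold change 4.08 ± 0.41, limma adjusted p = 0.00132). sult3st4 (ENSDARG00000040781), which encodes a cytosolic sulfotransferase, had 587, 486 and 495 counts at 30 nM and 44, 60 and 54 in the control. The pools of each group were close to each other for this gene, and its log2 fold change was 3.29 ± 0.19 (limma adjusted p = 3.14e-05). These 3 genes passed in each of the 12 leave-one-out fits.

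opn1lw1 (ENSDARG00000044862), a red cone opsin gene, averaged 1292 ± 43.6 counts at 30 nM and 83 ± 24.8 in the control (SD, n = 3 each). The 30 nM pools had 1331, 1245 and 1301 counts, against 64, 111 and 74 in the control pools, with no overlap. Its log2 fold change was 3.98 ± 0.24 (limma adjusted p = 3.14e-05), and the gene passed in each of the 12 leave-one-out fits. PTGR1, an enzyme gene of prostaglandin and leukotriene breakdown, had 929, 1071 and 582 counts at 30 nM and 81, 197 and 104 in the control (2.80 ± 0.34, limma adjusted p = 0.00518). RETSAT, which encodes retinol saturase, had 390, 636 and 356 counts at 30 nM and 79, 67 and 52 in the control (2.76 ± 0.29, limma adjusted p = 0.00206). Both passed in every leave-one-out fit.

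The other large rises varied more between pools. cyp2k18 had 3185, 5732 and 3488 counts at 30 nM, against 135, 606 and 228 in the control (3.91 ± 0.65, limma adjusted p = 0.0236). si:zfos-411a11.2 had 3174, 5922 and 3471 counts at 30 nM, against 214, 967 and 384 in the control (3.22 ± 0.54, limma adjusted p = 0.0259). Replicate 2 was the highest pool of both groups for this pair of genes. cyp2x10.2 had 203, 500 and 415 counts at 30 nM and 37, 78 and 69 in the control (2.55 ± 0.42, limma adjusted p = 0.0236). All 3 lost the call without control replicates 1 or 3 and without 30 nM replicates 2 or 3; cyp2k18 and si:zfos-411a11.2 also lost it without 30 nM replicate 1, and si:zfos-411a11.2 without 3 nM replicate 1. Genes of the cyp2, sulfotransferase, C-reactive protein and opsin families have near-identical copies that may share reads, so the value of any single member is uncertain.

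**Figure D2:**
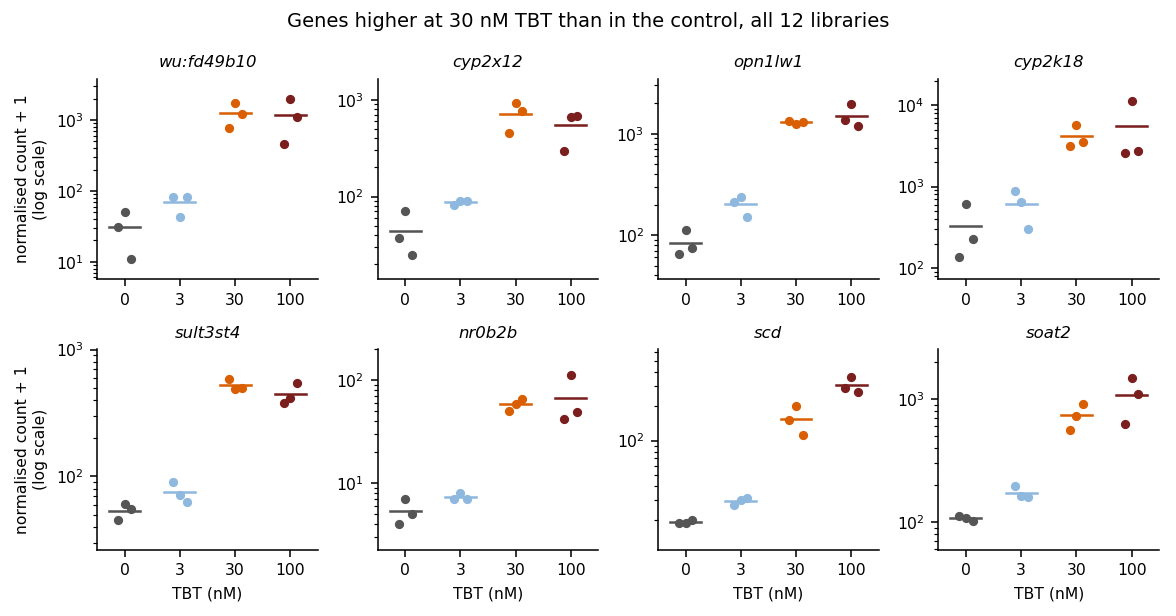
Normalised count + 1 on a log axis in all 12 libraries, by TBT concentration in nM (0 is the solvent control), for 8 genes that were higher at 30 nM; points are libraries (replicates 1 to 3 from left to right) and bars are arithmetic means of 3. At 30 nM the lowest pool of opn1lw1 had 1245 counts and the highest control pool 111, and scd was higher again at 100 nM.

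Of 20 tested genes of LXR response and sterol efflux, 5 rose, against 0.379% of all genes tested, and 0 fell. The median log2 fold change over the 20 was 0.51. All gene lists and their members were chosen with earlier results of these data known, so such shares are not an independent test. soat2 (ENSDARG00000059824), whose enzyme esterifies cholesterol for storage and secretion, had 560, 734 and 920 counts at 30 nM, against 111, 107 and 101 in the control. Its log2 fold change was 2.76 ± 0.27 (limma adjusted p = 0.00117), and it passed in each of the 12 leave-one-out fits. lcat, which esterifies cholesterol on plasma lipoproteins, had 1019, 1352 and 1198 counts at 30 nM and 569, 480 and 478 in the control (1.22 ± 0.16, limma adjusted p = 0.00693, also in each of the 12). abca1a, the gene of the transporter that loads cholesterol onto apolipoprotein A1, averaged 7878 ± 92.1 counts at 30 nM and 4541 ± 591 in the control (SD, n = 3 each; 0.80 ± 0.12, limma adjusted p = 0.0148).

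mylipa encodes a ubiquitin ligase that, in mammals, is induced by LXR and removes the LDL receptor. It had 1614, 1354 and 1421 counts at 30 nM, against 1012, 749 and 837 in the control (0.76 ± 0.13, limma adjusted p = 0.0264). abcg8, 1 subunit of the sterol exporter of liver and gut, had 412, 618 and 510 counts at 30 nM and 81, 213 and 131 in the control (1.94 ± 0.36, limma adjusted p = 0.0417). Its partner abcg5 had 515, 877 and 576 counts at 30 nM, against 121, 457 and 208 in the control, a difference of 1.49 ± 0.46 that did not pass (limma adjusted p = 0.271). pltp and cetp, lipid transfer protein genes, had differences of 1.13 ± 0.23 and 1.11 ± 0.23 that did not pass either (limma adjusted p = 0.0634 and 0.0642). The receptor gene nr1h3 itself had 1309, 1454 and 1509 counts at 30 nM and 1117, 1215 and 1107 in the control (0.31 ± 0.10, limma adjusted p = 0.290). apoea and abca1b lay at −0.56 ± 0.36 and −0.33 ± 0.17, both uncalled. The count of 5 was 2 without control replicate 3, without 30 nM replicate 2 or without 30 nM replicate 3, and 3 without 30 nM replicate 1 or 3 nM replicate 3. With equal totals 2 of the 20 passed, against 0.278% of all genes tested. In the fit of the 6 libraries alone 1 passed, soat2, against 0.067% of all genes tested. abca1a and mylipa lost the call without control replicate 3 or any single 30 nM replicate, mylipa also without 3 nM replicate 3, and abcg8 passed in 3 of the 12 leave-one-out fits.

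Outside that list, eepd1 rose with little spread, with 794, 787 and 810 counts at 30 nM and 300, 311 and 295 in the control. It was 2.63-fold higher (SE 0.10 on the log2 scale, limma adjusted p = 1.51e-04), and it passed in each of the 12 leave-one-out fits. In mouse macrophages this gene is known as a target of LXR; like the other genes beyond the naming rule, it was chosen here after its values were seen.

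Of 15 tested genes of fatty acid synthesis and desaturation, 3 rose, against 0.379% of all genes tested, and 0 fell. The median of the list was 0.19. scd (ENSDARG00000033662), a stearoyl-CoA desaturase gene, had 151, 201 and 112 counts at 30 nM, against 18, 18 and 19 in the control. The groups were far apart, and the log2 fold change was 2.97 ± 0.21 (limma adjusted p = 9.42e-05), past the threshold in each of the 12 leave-one-out fits. Its paralogue scdb had 1436, 1434 and 1352 counts at 30 nM and 958, 1375 and 1180 in the control, a difference of 0.28 ± 0.12 that did not pass (limma adjusted p = 0.460). fads2, the desaturase gene of polyunsaturated fatty acids, had 3546, 5662 and 4350 counts at 30 nM and 765, 1726 and 1443 in the control (1.84 ± 0.33, limma adjusted p = 0.0370). fasn, the fatty acid synthase gene, had 3223, 3143 and 3021 counts at 30 nM and 1975, 2277 and 2230 in the control, a rise of 0.54 ± 0.09 (limma adjusted p = 0.0338). Both fads2 and fasn passed in 3 of the 12 leave-one-out fits, those without control replicate 2, 100 nM replicate 1 or 100 nM replicate 2, and not with equal totals, so that scd alone remained in each of the other 9. In the fit of the 6 libraries alone scd was also the 1 call. acaca, acacb and elovl6 lay at −0.05, 0.19 and 0.05, none of them called. None of 26 tested genes of cholesterol biosynthesis and uptake passed; their median was 0.31, and hmgcra and sqlea lay at −0.14 ± 0.34 and 0.38 ± 0.28. With a replicate block, described below, 2 of the 26 were higher.

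**Figure D3:**
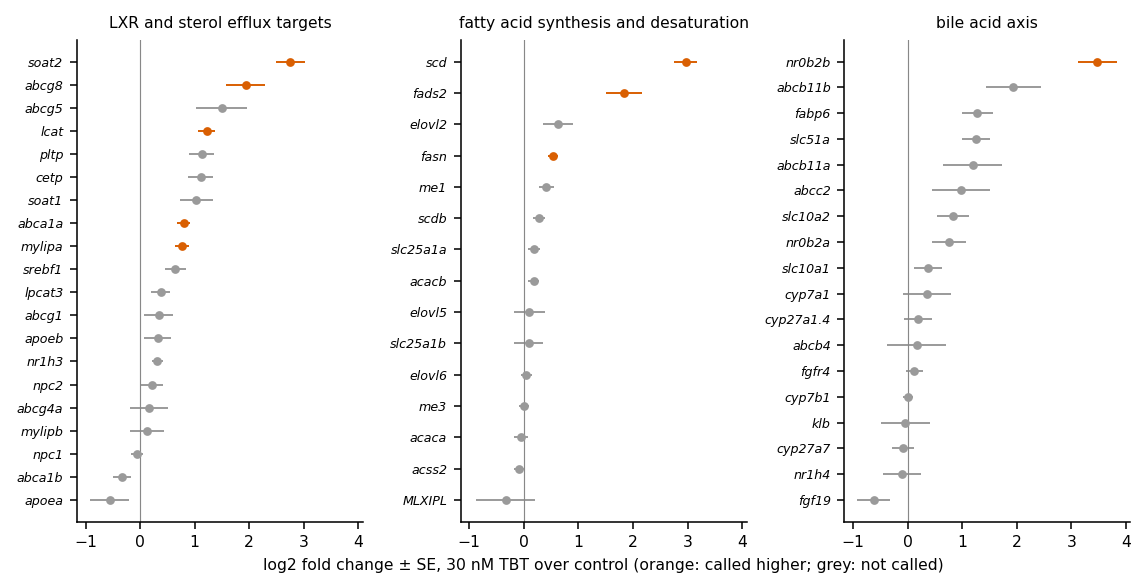
The log2 fold change of 30 nM TBT over the control (x axis, bars are 1 SE) for each tested gene of 3 lists: LXR response and sterol efflux (20 genes), fatty acid synthesis and desaturation (15) and bile acids (18); orange genes were higher past the threshold and grey ones were not called. The called genes were 5, 3 and 1, with soat2 at 2.76, scd at 2.97 and nr0b2b at 3.48.

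Among 18 tested genes of bile acid synthesis and transport 1 rose, against 0.379% of all genes tested, with a median of 0.37 over the list. nr0b2b (ENSDARG00000102756) is a copy of SHP, the repressor through which bile acids shut down their own synthesis in mammals. It had 49, 58 and 65 counts at 30 nM, against 3, 6 and 4 in the control, with a log2 fold change of 3.48 ± 0.36 (limma adjusted p = 0.00195, in each of the 12 leave-one-out fits). At such low control counts the pseudocount of 1 understates the change. The other copy, nr0b2a, had 540, 630 and 772 counts at 30 nM and 321, 481 and 346 in the control (0.76 ± 0.31, limma adjusted p = 0.442). cyp7a1, the gene of the rate-limiting enzyme of bile acid synthesis, had 869, 1418 and 1113 counts at 30 nM, against 589, 1639 and 667 in the control, with overlap between the groups. The transporter genes abcb11b and slc51a and the ileal bile acid binding protein gene fabp6 had differences of 1.94 ± 0.50, 1.26 ± 0.26 and 1.28 ± 0.29 that did not pass (limma adjusted p = 0.160, 0.0631 and 0.0919).

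Of 35 tested genes of retinoid and vitamin D metabolism 2 rose, against 0.379% of all genes tested, and the list median was 0.20. rbp2b, a cellular retinol binding protein gene, had 3586, 6861 and 5600 counts at 30 nM, against 859, 1474 and 1295 in the control (2.13 ± 0.29, limma adjusted p = 0.00990). gc, the gene of the plasma carrier of vitamin D, had 3821, 5486 and 5208 counts at 30 nM and 1212, 2227 and 2011 in the control (1.44 ± 0.24, limma adjusted p = 0.0259). rbp2b lost the call without 30 nM replicates 2 or 3, and gc without those and without control replicates 1 or 3 or 3 nM replicates 1 or 3. With equal totals rbp2b alone passed, and in the fit of the 6 libraries alone neither did. cyp24a1, whose enzyme breaks down active vitamin D, had 3859, 6232 and 3356 counts at 30 nM and 1372, 1757 and 1062 in the control. The groups did not overlap, and the difference of 1.66 ± 0.35 did not pass (limma adjusted p = 0.0683). The retinoic acid hydroxylase genes cyp26a1 and cyp26b1 lay at 0.25 ± 0.13 and 0.91 ± 0.21, and the retinal reductase gene dhrs3a at 0.88 ± 0.18, all uncalled.

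Of 19 tested genes for RXR, PPAR and their coregulators 0 passed, near the 0.531% called among all genes, with a median of −0.06, a range of −0.35 to 0.32 and 4 at an unadjusted p under 0.05. pparg had 280, 319 and 353 counts at 30 nM, against 322, 356 and 279 in the control (−0.01 ± 0.14). The RXR genes rxraa, rxrab, rxrba, rxrbb, rxrga and rxrgb lay at −0.09 ± 0.08, −0.35 ± 0.26, −0.03 ± 0.08, 0.20 ± 0.11, 0.21 ± 0.26 and 0.24 ± 0.12. The brain aromatase gene cyp19a1b, an estrogen response gene, had 7, 6 and 15 counts at 30 nM and 7, 12 and 12 in the control. lepb, a leptin gene, had 0 counts in all pools at 30 nM, against 0, 1 and 2 in the control.

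Of 51 tested genes of xenobiotic metabolism, 4 rose, against 0.379% of all genes tested, and 0 fell, with a median of 0.30. Beside sult3st4, cyp2x12 and cyp2k18 this was cyp2y3, with 7894, 11473 and 8801 counts at 30 nM and 3734, 5622 and 3917 in the control (1.09 ± 0.19, limma adjusted p = 0.0290). The count was 2 without control replicates 1 or 3 or without any single 30 nM replicate, and 2 with equal totals or in the fit of the 6 libraries alone. cyp1a, the gene used to read the aryl hydrocarbon receptor, had 617, 947 and 792 counts at 30 nM and 374, 821 and 527 in the control, with overlap (0.50 ± 0.30). sult1st4, a sulfotransferase gene outside the list, had 146, 150 and 163 counts at 30 nM and 71, 57 and 59 in the control (1.29 ± 0.16, limma adjusted p = 0.00518, in each of the 12). Of 40 tested genes of antioxidant, metal and iron response, nfe2l2b alone rose. This copy of the oxidative stress factor Nrf2 had 556, 574 and 555 counts at 30 nM, against 266, 294 and 292 in the control (0.98 ± 0.13, limma adjusted p = 0.00827), and lost the call without 30 nM replicates 2 or 3. Its enzyme targets gclm, nqo1 and hmox1a, known from mammals, lay at 0.49 ± 0.15, 0.29 ± 0.21 and −0.37 ± 0.32, none called. ggctb, a glutathione cycle gene outside the list, rose by 0.98 ± 0.12 (limma adjusted p = 0.00462), with 1341, 1327 and 1417 counts at 30 nM against 767, 759 and 568 in the control.

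Of 5 tested genes with C-reactive protein names, pentraxins of the acute phase in mammals, crp, crp2 and crp3 rose. The shares over all genes tested were 0.379% higher and 0.152% lower. The 5 genes were grouped by name and do not form a gene list of their own. Of them, crp2 and crp3 are neighbouring related genes that may share reads. crp had 2558, 3806 and 3165 counts at 30 nM and 612, 912 and 762 in the control (2.06 ± 0.20, limma adjusted p = 0.00117). crp2 and crp3 rose by 1.97 ± 0.21 and 1.72 ± 0.15 (limma adjusted p = 0.00211 and 4.80e-04), and all 3 passed in each of the 12 leave-one-out fits. crp1 had 25, 40 and 23 counts at 30 nM and 11, 56 and 17 in the control, and the pseudogene crp4 had 526, 452 and 426 at 30 nM and 612, 246 and 559 in the control, both with overlap. Of the 35 tested genes of acute phase and cytokine signalling that hold them, 3 others fell: the transcription factor genes junba and cebpb and the cytokine suppressor gene socs3a. The median of the list was −0.06, and saa and il1b lay at 1.41 ± 0.46 and −0.91 ± 0.40, both uncalled. cebpb had 1310, 1330 and 1546 counts at 30 nM, against 5531, 2446 and 3255 in the control (−1.34 ± 0.25, limma adjusted p = 0.0443). cebpb passed in 2 of the 12 leave-one-out fits and socs3a in 1. In the fit of the 6 libraries alone 2 of the 35 passed, crp and crp3, against 0.067% of all genes tested.

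Of 24 tested plasma protein genes of the liver, 2 rose and 1 fell, with a median of 0.36. Among all genes tested 0.379% were higher and 0.152% lower. Beside gc, the thyroid hormone carrier gene ttr rose, with 1589, 1888 and 1744 counts at 30 nM and 607, 869 and 713 in the control (1.26 ± 0.21, limma adjusted p = 0.0264). ahsg2, a fetuin gene, had 4, 23 and 7 counts at 30 nM, against 72, 110 and 112 in the control (−3.30 ± 0.49, limma adjusted p = 0.0148). It lost the call without control replicate 3 or 30 nM replicate 3. fabp10a, the liver fatty acid binding protein gene of fish, had 19917, 26472 and 24007 counts at 30 nM and 6376, 10096 and 9317 in the control (1.47 ± 0.20, limma adjusted p = 0.00827). fabp1b.1, a binding protein gene of the fish gut, had 19163, 21819 and 20859 counts at 30 nM and 8633, 12228 and 10514 in the control (0.99 ± 0.16, limma adjusted p = 0.0168). The calls of ttr, fabp10a and fabp1b.1 were lost without 30 nM replicates 2 or 3, and those of ttr and fabp1b.1 also without 30 nM replicate 1 or control replicates 1 or 3; ttr was lost without 3 nM replicate 1 as well. With equal totals 0 of the 24 were higher and 1 was lower, and fabp10a and fabp1b.1 did not pass (limma adjusted p = 0.0544 and 0.121). In the fit of the 6 libraries alone 0 of the 24 passed. The summed level of the plasma protein list was 5356 to 7598 per 1000000 summed counts at 30 nM and 5069 to 5440 per 1000000 in the control, with overlap, and its part in these results was not tested. epd, an ependymin gene outside the lists, had 10482, 10038 and 9725 counts at 30 nM and 2609, 3862 and 2577 in the control (1.77 ± 0.15, limma adjusted p = 3.52e-04, in each of the 12). si:cabz01068815.1, with no role given here, had 1151, 1401 and 1337 counts at 30 nM and 376, 411 and 469 in the control (1.63 ± 0.10, limma adjusted p = 4.67e-05, also in each of the 12).

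In the eye, opn1lw1 was the 1 gene of 53 tested photoreceptor genes that passed, and the median of the list was −0.21. For this list and those below, the shares among all genes tested were 0.379% higher and 0.152% lower. The other red opsin gene, opn1lw2, had 19457, 28390 and 25881 counts at 30 nM and 15320, 24749 and 20304 in the control (0.30 ± 0.24, limma adjusted p = 0.750). The cone genes grk7a, pde6c and opn1sw1 lay at −1.21 ± 0.38, −1.09 ± 0.41 and −0.60 ± 0.27, and the rod opsin gene rho at 0.00 ± 0.31, all uncalled. The summed level of the list was 6530 to 10070 per 1000000 at 30 nM and 7052 to 13470 in the control, with overlap. aanat2, a gene of melatonin synthesis in the pineal gland, had 141, 126 and 124 counts at 30 nM and 57, 45 and 45 in the control (2.64-fold, SE 0.21 on the log2 scale, limma adjusted p = 0.0148). Of the 46 tested genes of the clock and the pineal gland it was the 1 that rose, and hlfa, a clock output factor gene, the 1 that fell, by 0.48 ± 0.09 (limma adjusted p = 0.0498, in 1 of the 12 leave-one-out fits). nfil3, a clock repressor gene, lay at 0.46 ± 0.12 and did not pass (limma adjusted p = 0.183). Of 22 tested genes of myelin and glia, the myelin genes plp1b and mbpa rose by 1.37 ± 0.21 and 0.75 ± 0.13 (limma adjusted p = 0.0151 and 0.0383). mbpa had 3388, 3211 and 3035 counts at 30 nM, against 1799, 2314 and 1675 in the control, and passed in 3 of the 12. aqp4, a water channel gene of glia in mammals, lay at 0.49 ± 0.17, uncalled. aanat2 and plp1b lost the call without control replicate 3 or any single 30 nM replicate. With equal totals, and in the fit of the 6 libraries alone, 0 genes of the myelin list and 0 of the clock and pineal list passed. The shares among all genes tested were 0.278% and 0.067% in these fits. For plp1b, mbpa and aanat2 the limma adjusted p with equal totals was 0.0737, 0.0890 and 0.0506.

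In tcap, hspb11, ponzr3, ahsg2, cabp5a and adamts8a, all lower at 30 nM than in the control, the 3 nM pools overlapped the control pools or lay above them, and 30 nM differed from 3 nM in its own test. That test depended on single pools. It called 10 genes lower with all libraries, and 1, 0 and 0 without 3 nM replicates 1, 2 and 3. Without 30 nM replicates 1, 2 and 3 it called 2, 7 and 0 lower. tcap, the gene of the sarcomere protein telethonin, had 864, 1030 and 849 counts in the control, 695, 1236 and 876 at 3 nM, 189, 341 and 114 at 30 nM and 353, 250 and 206 at 100 nM. Its log2 fold change was −2.22 ± 0.35 against the control (limma adjusted p = 0.0168) and likewise −2.22 against 3 nM (limma adjusted p = 0.0397). hspb11, a small heat shock protein gene, had 838, 777 and 864 counts in the control, 936, 1087 and 1029 at 3 nM, 468, 493 and 391 at 30 nM and 169, 183 and 138 at 100 nM. It fell at 30 nM against the control (−0.88 ± 0.13, limma adjusted p = 0.0140) and fell further at 100 nM against 30 nM (−1.46, limma adjusted p = 1.11e-04). ponzr3, of the cysteine-rich plac8 family, had 235, 60 and 141 counts in the control, 91, 154 and 145 at 3 nM, 10, 16 and 11 at 30 nM and 11, 7 and 12 at 100 nM (−3.28 ± 0.43 against the control, limma adjusted p = 0.00827). tcap lost the call against the control without control replicates 1 or 3 or 30 nM replicates 1 or 3, and hspb11 and ponzr3 lost it without control replicate 3 or 30 nM replicate 3. Of 45 tested genes on the sarcomere list, which did not hold tcap, none passed, with a median of 0.21. The muscle genes pygma (glycogen phosphorylase) and mb (myoglobin) rose by 1.21 ± 0.17 and 0.82 ± 0.12 (limma adjusted p = 0.00917 and 0.0104). Both lost the call without control replicate 3 or 30 nM replicates 2 or 3.

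The immediate early genes encode transcription factors and signal regulators that cells switch on within minutes of a stimulus. Of 35 tested members of that list 11 fell, against 0.152% of all genes tested, and 0 rose, with a median of −0.88. An unadjusted limma p under 0.05 was reached by 25 of them, against 9.68% of all genes tested. fosab (ENSDARG00000031683), a subunit gene of the AP-1 factor, had 494, 491 and 958 counts at 30 nM, against 8704, 3522 and 5905 in the control (−3.20 ± 0.43, limma adjusted p = 0.00827). egr1, a zinc finger factor gene, had 2440, 2106 and 3379 counts at 30 nM, against 14800, 7983 and 10469 in the control (−2.05 ± 0.27, limma adjusted p = 0.00826). btg2, an antiproliferative gene, had 1229, 1222 and 1699 counts at 30 nM, against 10226, 4339 and 6358 in the control (−2.26 ± 0.28, limma adjusted p = 0.00518). The groups were well apart for all 3 genes.

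egr2a and the MAP kinase phosphatase gene dusp1 fell, with log2 fold changes of −2.84 ± 0.32 and −1.83 ± 0.23 (limma adjusted p = 0.00283 and 0.00693). The AP-1 genes junbb and fosl1a fell, with −2.33 ± 0.32 and −2.22 ± 0.31 (limma adjusted p = 0.00917 and 0.0104). The other members that fell were junba (−1.53), egr3 (−1.52), nr4a1 (−1.25) and jund (−0.78). Outside the list, jdp2b (a repressor of AP-1 in mammals), the kinase gene sik1 and the matrix signal gene cyr61 fell, with −2.19 ± 0.34, −1.73 ± 0.20 and −1.59 ± 0.15 (limma adjusted p = 0.0168, 0.00448 and 0.00112). egr1, egr2a, btg2, dusp1, sik1 and cyr61 were the 6 falls that passed in each of the 12 leave-one-out fits. The count of 11 was 6 without control replicate 3, 7, 4 and 6 without 30 nM replicates 1, 2 and 3, and 0 of 35 in the fit of the 6 libraries alone. fosab and junbb lost the call without control replicate 3 or 30 nM replicate 2, fosl1a without 30 nM replicates 2 or 3, and jdp2b without control replicate 3 or any single 30 nM replicate. fosab and egr2a share their names with a further gene ID that was too low to test.

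For most of the named members the control mean was higher than the mean at each of the 3 concentrations. fosab had 8704, 3522 and 5905 counts in the control, 543, 616 and 1592 at 3 nM, 494, 491 and 958 at 30 nM and 573, 701 and 505 at 100 nM. egr1 had 14800, 7983 and 10469 counts in the control, 1791, 2212 and 3454 at 3 nM, 2440, 2106 and 3379 at 30 nM and 2589, 2376 and 2408 at 100 nM. The contrast of 30 with 3 nM takes no mean from the control pools, which enter it through the shared estimate of spread. In it 0 of the 35 genes passed, beside 0.134% of all genes tested, and the median was −0.10. The comparisons of each concentration with the control share the same 3 control pools. The summed level of the list was 1714 to 2751 per 1000000 in the control, 863 to 1010 at 3 nM, 774 to 917 at 30 nM and 1010 to 1022 at 100 nM. Control replicate 1 was the highest control pool in 11 of the 11 called genes, and 10 of the 35 still passed without it. What set the control pools apart was not tested. Between 100 and 30 nM 6 of the 35 genes were higher and 1 lower, beside 5.29% higher and 3.95% lower among all genes tested, with a median of 0.08. fosl1a had 1772, 1093 and 1354 counts at 100 nM and 160, 145 and 153 at 30 nM, a difference of 3.17 between 100 and 30 nM (limma adjusted p = 2.10e-04). junba had 1742, 1393 and 1348 counts at 100 nM and 525, 450 and 622 at 30 nM, a difference of 1.49 (limma adjusted p = 0.00241), and its mean at 100 nM was 1494 against 1568 in the control. dusp1, and cebpb and cyr61 outside the list, were also higher at 100 than at 30 nM; dusp1 and cebpb differed by 0.84 and 2.08 (limma adjusted p = 0.0442 and 5.90e-04), and cyr61 had 986, 1047 and 880 counts at 100 nM against 456, 466 and 538 at 30 nM (limma adjusted p = 0.00225).

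Of 33 tested genes of the p53 response and apoptosis 2 fell, against 0.152% of all genes, and 0 rose, with a median of 0.01. Beside btg2, which is in both lists, this was gadd45bb, a growth arrest and DNA damage response gene. It had 198, 166 and 202 counts at 30 nM, against 516, 332 and 397 in the control, without overlap (−1.11 ± 0.17, limma adjusted p = 0.0148). Its paralogue gadd45ba lay at −0.78 ± 0.20 and did not pass (limma adjusted p = 0.158). gadd45bb lost the call without control replicate 3 or any single 30 nM replicate, and in the fit of the 6 libraries alone 0 of the 33 passed.

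**Figure D4:**
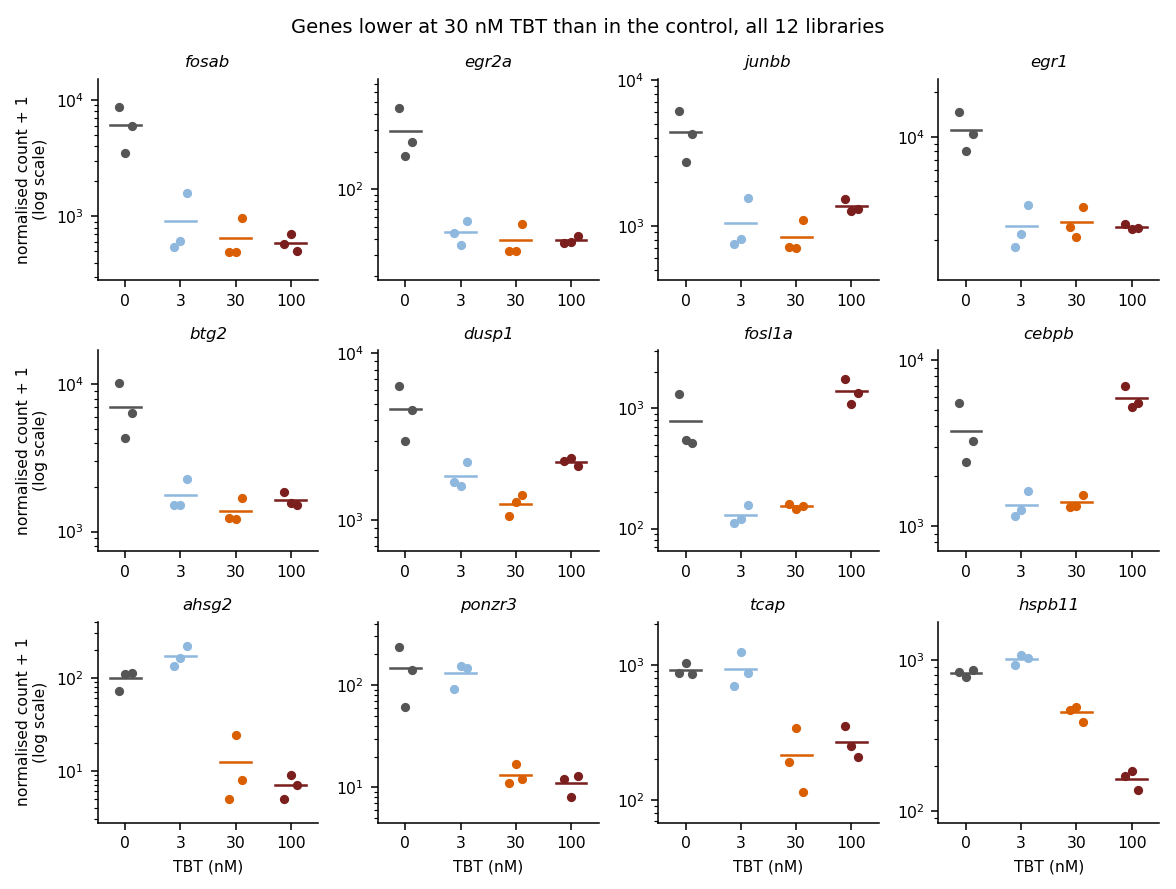
Normalised count + 1 on a log axis in all 12 libraries, by TBT concentration in nM (0 is the solvent control), for 12 genes that were lower at 30 nM; points are libraries (replicates 1 to 3 from left to right) and bars are arithmetic means of 3. The upper rows hold immediate early genes and cebpb, low at 3 and 30 nM alike, with fosl1a and cebpb high again at 100 nM; in the bottom row ahsg2, ponzr3, tcap and hspb11 are low at 30 and 100 nM only.

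The 30 nM libraries were also tested against the neighbouring doses, in the same fit of all 12 libraries. Against 3 nM, 30 genes differed (0.134%), 20 higher (0.0893%) and 10 lower (0.0446%). sult3st4 differed by 2.82, opn1lw1 by 2.71, scd by 2.37, nr0b2b by 2.99, soat2 by 2.07, crp3 by 1.32 and eepd1 by 0.92 (limma adjusted p between 1.99e-04 and 0.0149). Against this, cyp2k18 and abcg8 differed from 3 nM by 2.84 and 1.47 and did not pass (limma adjusted p = 0.284 and 0.384). Of the sterol list 2 of 20 passed, the cholesterol esterification genes soat2 and lcat, and of the fatty acid list 2 of 15, scd and fasn. The transporter genes abca1a and abcg8 and the ligase gene mylipa did not pass against 3 nM. The number of calls was 3 without 30 nM replicate 3, 10 and 14 without 30 nM replicates 1 and 2, and 5, 4 and 5 without 3 nM replicates 1, 2 and 3.

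Between 100 and 30 nM, 2069 genes differed (9.23%), 1185 higher (5.29%) and 884 lower (3.95%) at 100 nM. Most of the largest rises at 30 nM showed no further difference that passed. opn1lw1 had 1363, 1957 and 1199 counts at 100 nM and 1331, 1245 and 1301 at 30 nM, a difference of 0.19 ± 0.24 (limma adjusted p = 0.720). For wu:fd49b10, cyp2x12, sult3st4, nr0b2b and soat2 the difference was −0.24, −0.41, −0.24, 0.09 and 0.48 (limma adjusted p between 0.336 and 0.930). scd went further, with 290, 364 and 267 counts at 100 nM and 151, 201 and 112 at 30 nM (1.01 ± 0.21, limma adjusted p = 0.0122). abca1a differed by 0.94 and nfe2l2b by 1.29 (limma adjusted p = 7.54e-04 and 2.39e-04), both higher at 100 nM. crp was lower at 100 nM than at 30 nM, with 1568, 1997 and 2048 counts at 100 nM and 2558, 3806 and 3165 at 30 nM (−0.75, limma adjusted p = 0.0373). Of the acute phase list 16 of 35 genes were higher and 1 lower at 100 than at 30 nM, with a median of 0.78. The number of calls was 1123, 1170 and 1041 without 30 nM replicates 1, 2 and 3, and 1319 without 100 nM replicate 1.

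With 0.531% of all genes called, a list of this length without a call is near the background. Of the 43 gene lists 23 held no gene that passed, among them the lens, the globins, the keratins, cartilage and bone, ionocytes, the ribosome, the proteasome, oxidative phosphorylation, DNA replication and the endoplasmic reticulum chaperones. The chaperone list had a median of −0.24 over 24 tested genes, 5 of them positive. An unadjusted limma p under 0.05 was reached by 8 of the 24, against 9.68% of all genes tested. With the replicate block, described below, 4 of the 24 were lower, against 1.62% of all genes tested. The exocrine pancreas list lay lowest after the immediate early genes, with a median of −0.73 over 30 tested genes, 1 of them positive, 5 at an unadjusted p under 0.05 and none past the threshold. Its summed level was 4884 to 6447 per 1000000 at 30 nM and 6686 to 12310 in the control. The groups did not overlap. This was not particular to the pancreas, as the summed levels of several other lists did not overlap either, in both directions. The endoplasmic reticulum chaperones had 1855 to 2028 at 30 nM and 2178 to 2547 in the control. The retinoid and vitamin D list had 4047 to 4296 at 30 nM and 2642 to 3607 in the control. Among single genes the 30 nM pools lay below all control pools in 7.28% of those tested, and no such share was computed for summed lists. At 3 nM the summed level of the pancreas list was 5077 to 7496, which overlapped both groups. The synapse list had a median of −0.39 over 45 genes, none called, and its summed level was 1503 to 2055 per 1000000 at 30 nM and 1486 to 3875 in the control. In that list and in the photoreceptor list control replicate 2 was the highest of the 6 pools, and replicate 2 was the highest pool within every group, also at 3 and 100 nM. Of 30 tested macrophage and neutrophil markers, the scavenger receptor gene marco rose by 1.13 ± 0.21 (limma adjusted p = 0.0494, in 2 of the 12 leave-one-out fits and not with equal totals), while the neutrophil genes mpx and lyz lay at −0.26 ± 0.18 and 0.34 ± 0.24. The lists together held 44 of the 119 genes.

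**Figure D5:**
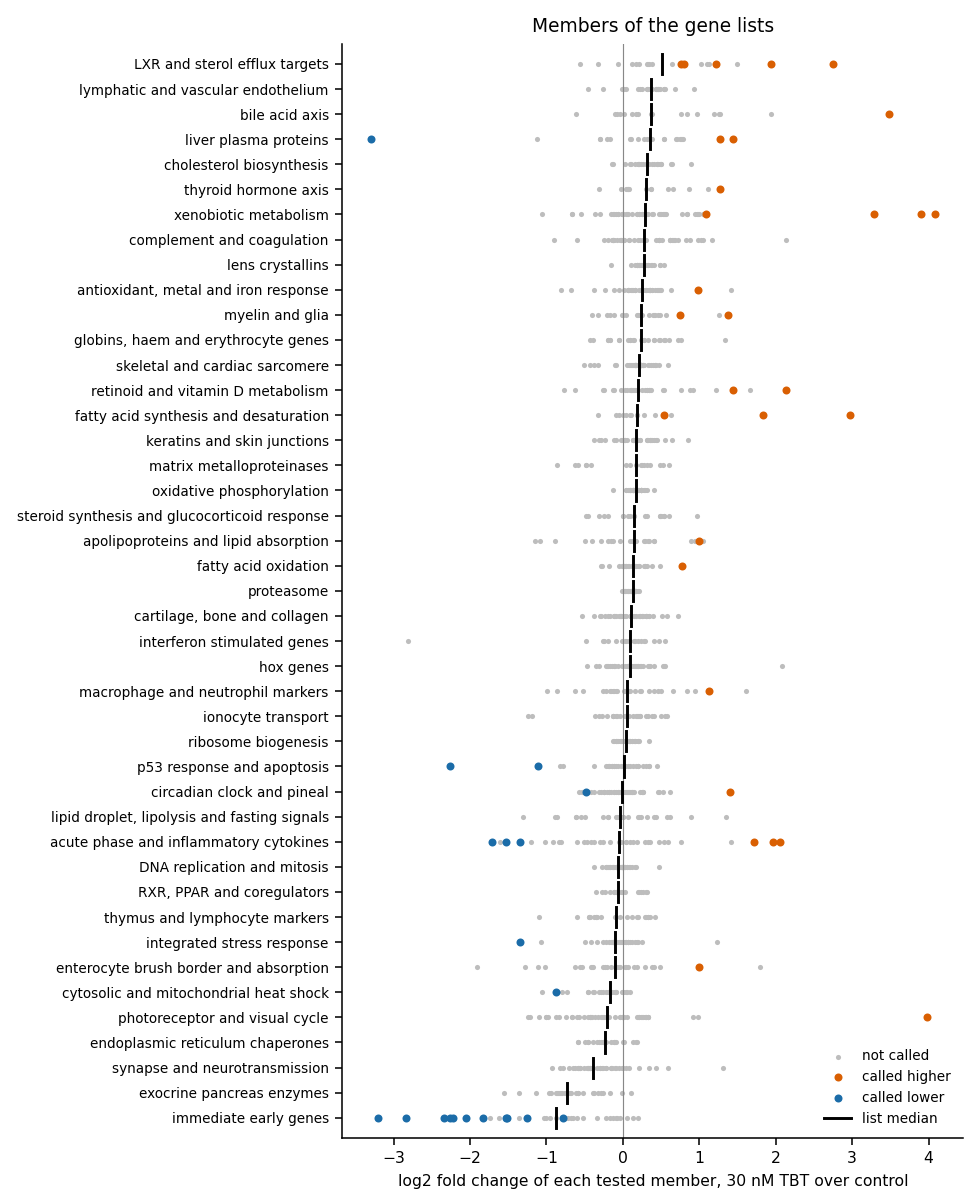
Each row is 1 of 43 gene lists, ordered by its median log2 fold change of 30 nM TBT over the control (black bar, x axis); points are the tested members, orange where higher and blue where lower past the threshold, grey where not called. The LXR and sterol list stands highest at 0.51 with 5 orange points, and the immediate early genes lowest at −0.88 with 11 blue points.

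A fit with the replicate number as a block was also made, since each group holds replicates 1 to 3. It called 778 genes (3.47%), 416 higher (1.86%) and 362 lower (1.62%), and held all 119 of the fit without the block. Deviations of same-numbered 30 nM and control pools from their group means correlated at 0.466, 0.439 and 0.0253 for replicates 1, 2 and 3. On the first principal component replicate 1 scored highest and replicate 2 lowest in every group. Replicate 3 lay between them, so its low correlation cannot show that the pools were unpaired. The labels do not say whether a number marks a shared batch. The blocked values are given beside the main ones, not in their place. With the block, 10 of the 20 sterol genes, 20 of the 35 immediate early genes, 6 of the 35 retinoid and vitamin D genes and 5 of the 18 bile acid genes were higher or, for the immediate early genes, lower; 1 retinoid gene was also lower. cyp24a1 reached a limma adjusted p of 1.35e-04, pltp 0.00743, abcg5 0.0161, slc51a 8.33e-04 and abcb11b 0.0133 with the block. Of the photoreceptor list 4 genes were then higher and 9 lower.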

How the data were processed

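Poly(A) RNA of 12 pools of whole larvae was sequenced on a stranded library kit, per the labels' protocols. The values are scores in the sense of normalised counts that the authors rounded to whole numbers before they were deposited, per the file headers. Per the submitters' processing notes the genome build was GRCz10 and the tools were DESeq2 1.10.1, RSEM 1.2.28, STAR 2.5.1b and CASAVA, with no role or order given. Raw counts are not used here, so no count test was run; the size of 1 read, estimated from the steps between values, gave the approximate raw totals.

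From these values log2(value + 1) was tested with limma 3.58.1 (R 4.3.3), all 12 libraries in 1 fit, with a variance trend, for genes with at least 10 in at least 3 libraries. P-values were Benjamini-Hochberg adjusted over all tested genes, and a fold change on this scale understates the change of low genes. The scripts were tested on simulated data without a replicate effect, so that test does not cover one. The comparisons were 30 nM against the control, 30 nM against 3 nM and 100 nM against 30 nM. Alternatives were a fit of the 2 groups compared, the replicate number as a block, equal totals, another normalization, pseudocounts of 0.5 and 5, other filters, no variance trend, robust variances and leaving out each library.

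Genes were named as the 10 largest rises and 10 largest falls with a mean of at least 5 per 1000000. Also named were the 3 members with the lowest p of each list with 2 or more called members. A fixed set was named whatever its result: receptor, sterol, desaturase, retinoid, vitamin D, leptin, aromatase, cyp1a and opsin genes. All other genes were named after their values were seen. The members and the 43 gene lists (1365 of 1435 symbols matched) were chosen with earlier results of these data known. The sign and size of the correlation of same-numbered pools decided that the fit without the block is the main one. These correlations were 0.466, 0.439 and 0.0253 for replicates 1, 2 and 3. Across numbers, 30 nM replicate 1 correlated at −0.445 with control replicate 2, and 30 nM replicate 2 at −0.448 with control replicate 1. The values cannot show that the pools were unpaired. The choice of main fit therefore does not show that the numbers mark no shared batch. In the files 578 gene names belong to more than 1 gene ID.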

Additional observations from a re-analysis of the deposited data

How the results depend on the processing

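The number of genes that differed between 30 nM and the control was 119. It was 15 in a fit of the 2 groups alone, 62 with equal totals, 778 with the replicate block and 717 (249 higher, 468 lower) with the block and equal totals, and 28 to 267 when 1 library was left out. It stayed between 105 and 156 with other pseudocounts, filters, size factors or variance settings and with the block in the 2 groups alone. Between 100 and 30 nM the 2069 calls became 1164 in the 2 groups alone, 4540 with the replicate block, 3715 with the block in the 2 groups and 4697 with the block and equal totals, and 1041 to 2489 without 1 library; equal totals gave 644 higher and 1168 lower, against 1185 and 884. Between 30 and 3 nM the 30 calls became 103 in the 2 groups alone, 129 with the block, 701 with the block in the 2 groups, 102 with the block and equal totals, 19 with equal totals and 3 to 38 without 1 library. The 44 called genes in any list became 9 in the 2 groups alone, 150 with the block, 147 with the block and equal totals, and 16 to 71 without 1 library. The cause of these changes was not tested. Same-numbered pools of 30 nM and control correlated at 0.466, 0.439 and 0.0253. 30 nM replicates 1 and 2 correlated best with their own number, while replicate 3 lay between −0.0216 and 0.0253 with all 3 control pools. Replicate 1 scored highest and replicate 2 lowest on the first principal component in every group. These are hints from the data and not from the design, and whether the numbers pair the samples is not known. Of 16596 pairs of a named gene and an alternative, 218 changed sign where the gene was uncalled in both, and 0 called values changed sign. With 3 pools in each group, differences that are small beside the spread between pools can be missed, and low genes are limited by whole-number values.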

Other observations

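Some of the 119 genes lie next to each other. In the gene order of the GRCz12tu assembly, in which 113 of the 119 were matched by name, 10 lie within 5 gene places of another called gene, in 5 groups. They are crp2 with crp3, cyp2k18 with cyp2k20 and cyp2x10.2 with cyp2x12, each 1 place apart and all higher at 30 nM, fosab with jdp2b, 2 places apart and both lower, and ca4b with proca1, 3 places apart and both higher. The first 3 pairs are related genes that may share reads. How often called genes would lie this close by chance was not tested.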
